A study of Homo sapiens with 6 samples.

Results

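MER61 is a family of endogenous retrovirus remnants found in primates. The 7 table entries named MER61A, MER61B, MER61C, MER61D, MER61E, MER61F and MER61-int were chosen by name, and all 7 were among the 15641 repeat entries of the table and among the 3219 that passed the filter on low counts. The data are RNA sequencing of the chromatin fraction of H9 cells, a long-established line of human embryonic stem cells. There were 3 libraries labelled naive (RSeT medium, a culture that holds the cells in a state nearer to the early embryo). Another 3 were labelled primed (the conventional state, nearer to the embryo after implantation). All 6 libraries carry the same RSeT growth protocol in the labels, so the primed state rests on the treatment label alone, and the medium of the primed cells is not given. Both groups are the H9 line, with no transgene or knockdown named. The table lists repeats and no genes, so the labelled states were not checked against marker genes. Because every library comes from 1 cell line, and separate cultures are not stated, the p-values speak only for the variation among these 6 libraries, which may be technical.

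An endogenous retrovirus is a viral genome that entered the germ line and is now inherited. An intact copy has an internal part, which once held the viral genes, between a pair of long terminal repeats, which hold the promoter and enhancer sequences. Recombination between the terminal repeats removes the internal part and leaves a solitary terminal repeat, the form in which most old copies persist. MER61A to MER61F are subfamilies of the terminal repeat and MER61-int is the internal part. Terminal repeats of MER61, like those of LTR10, are known for copies that carry binding sites of p53. This transcription factor is activated by DNA damage and also restrains the self-renewal of stem cells. No sequence was read here, so which of the MER61 entries hold copies with such sites was not tested. Each count sums reads over all genomic copies of an entry, so no position is attached to a value, and RNA started in a MER61 copy cannot be told apart from a longer transcript that runs through one. In such bulk samples fewer cells with an RNA and less of it per cell cannot be told apart either.

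MER61 RNA was higher on naive than on primed chromatin for 4 of the 7 entries, and 0 were lower (quasi-likelihood test of edgeR, p adjusted by Benjamini-Hochberg over all 3219 entries, threshold 0.05). MER61A rose 2.10-fold, MER61D 1.93-fold, MER61B 1.52-fold and the internal part MER61-int 1.52-fold. MER61C, MER61E and MER61F did not pass the test, with fitted ratios of 1.24, 1.08 and 1.07. In the same fit 4.94% of all entries and 10.4% of the 1265 named repeats (those that are not simple repeats) were called higher, and 1.19% of named repeats were called lower. The number of entries with an unadjusted p under 0.05 was also 4 higher and 0 lower. The share of all named repeats at that unadjusted threshold was not counted, so such counts, here and below, stand without a background. DESeq2, a second count model, called 3 higher (MER61A, MER61D and MER61-int), beside 7.67% of named repeats, and 0 lower. The calls depended on keeping primed library 1: without it 0 of the 7 passed by edgeR, although 4 had an unadjusted p under 0.05. In that fit 0.549% of named repeats were called higher. The log2 changes were then 1.02 for MER61A, 0.87 for MER61D, 0.44 for MER61B and 0.60 for MER61-int. With all 6 libraries they were 1.07, 0.95, 0.60 and 0.60. The primed libraries left were library 3 and the shallow library 2, the latter with 118793 counts. Without naive library 2, MER61A and MER61D were the 2 entries that passed. In that fit 56 of 3547 entries, simple repeats included, were called higher. The calls also rested on scaling for the make-up of the libraries. With library size alone 0 passed by edgeR, also without adjustment, beside 1.03% of named repeats called higher.

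The make-up of the libraries differed in ways that move with the groups. Total counts ran from 9748202 to 17791046 in naive libraries and were 7192242, 118793 and 8106871 in the 3 primed ones. Alpha satellite, the repeat of centromeres, held 25.3% to 42.9% of counts in naive and 0.221% to 0.625% in primed libraries, and simple repeats held 2.73% to 3.97% and 5.46% to 7.33%. Ribosomal RNA ran from 0.169% to 6.08% in naive and from 4.04% to 17.7% in primed libraries, highest in primed library 1. The scaling factors of edgeR's TMM method were 0.628 to 0.903 in naive and 1.10 to 1.51 in primed libraries. All CPM values below are TMM-scaled CPM (counts relative to a scaled library total), unless library totals are named, and values per library stand in the order of libraries 1, 2 and 3. The summed MER61 counts were 6048, 9967 and 10038 in the naive libraries and 3788, 70 and 5188 in the primed libraries. With 70 MER61 counts in primed library 2, its values for single entries carry wide counting errors. The table gives no copy number or length per entry, so levels are compared between groups and not between entries.

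The internal part, MER61-int, stood at 391, 518 and 370 CPM in the naive libraries and at 288, 246 and 296 CPM in the primed libraries. Every naive library lay above every primed one, with naive library 2 the highest of all. The means were 426 ± 80.2 CPM in the naive libraries and 277 ± 27.05 CPM in the primed ones (SD, n = 3), a log2 change of 0.60 ± 0.16 (SE; edgeR adjusted p = 0.0315). This call was lost without naive library 2 (log2 0.47, edgeR adjusted p = 0.124), without primed library 1 (0.60, 0.171) and without primed library 3 (0.63, 0.0530). It was lost as well when simple repeats were left out of the fit (0.36, 0.134).

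MER61A, a terminal repeat subfamily, had the largest change of the 7. It stood at 110, 136 and 114 CPM in the naive libraries and at 54.5, 33.6 and 64.7 CPM in the primed libraries. The lowest naive library was well above the highest primed one. Primed library 2 was the lowest of all, on 6 counts. The means were 120 ± 14.06 and 50.9 ± 15.9 CPM (SD, n = 3), a log2 change of 1.07 ± 0.17 (SE; 95% interval 0.69 to 1.45; edgeR adjusted p = 0.00959). That change exceeded those of 97.2% of the named repeats tested. Without primed library 1 it was 1.02 with an edgeR adjusted p of 0.0701, and each of the other 5 fits without 1 library kept the call.

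MER61D, a second terminal repeat subfamily, followed the same pattern. Its values were 79.7, 105 and 93.2 CPM in the naive libraries and 45.3, 33.6 and 53.98 CPM in the primed libraries. The groups did not overlap, and primed library 2 was again lowest, on 6 counts with an exact 95% Poisson interval of 2.20 to 13.1. The means were 92.8 ± 12.9 and 44.3 ± 10.2 CPM (SD, n = 3), a log2 change of 0.95 ± 0.17 (SE; 95% interval 0.57 to 1.33; edgeR adjusted p = 0.0117). It exceeded 96.1% of named repeats. Without primed library 1 it was 0.87 (edgeR adjusted p = 0.0877), and the other 5 such fits kept the call.

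MER61B was called by a small margin. It stood at 48.7, 56.2 and 56.2 CPM in the naive libraries and at 30.5, 33.6 and 40.4 CPM in the primed libraries, again without overlap. The value of primed library 2 rested on 6 counts here too. The log2 change was 0.60 ± 0.17 (SE; edgeR adjusted p = 0.0441). The call was lost in 3 of the 6 fits without 1 library: naive library 2 (0.60, edgeR adjusted p = 0.124), naive library 3 (0.60, 0.104) and primed library 1 (0.44, 0.311). DESeq2 did not call it either (0.58, DESeq2 adjusted p = 0.127).

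**Figure D1:**
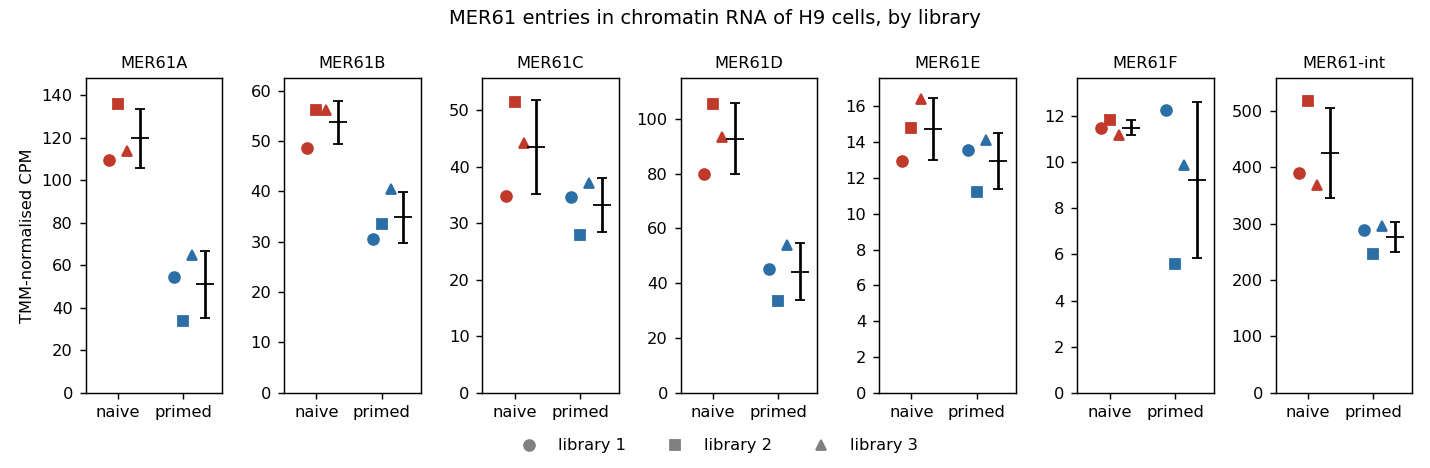
TMM-normalised CPM (vertical axes from 0, 1 scale per entry) of the 7 MER61 entries in 3 naive (red) and 3 primed (blue) libraries, where marker shape gives the library number and black bars the mean ± SD. The groups are apart for MER61A, MER61B, MER61D and MER61-int and overlap for MER61C, MER61E and MER61F.

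The other terminal repeat subfamilies had overlapping groups. MER61C stood at 34.8, 51.3 and 44.2 CPM in the naive libraries and 34.7, 27.97 and 37.05 CPM in the primed libraries, with a log2 change of 0.31 and a 95% interval of -0.11 to 0.72 (edgeR adjusted p = 0.291). MER61E stood at 12.97, 14.8 and 16.4 CPM in the naive libraries and 13.5, 11.2 and 14.1 CPM in the primed libraries (log2 0.11, 95% interval -0.40 to 0.62, edgeR adjusted p = 0.775). MER61F stood at 11.5, 11.8 and 11.2 CPM in the naive libraries and 12.3, 5.59 and 9.86 CPM in the primed libraries (log2 0.10, 95% interval -0.47 to 0.66, edgeR adjusted p = 0.822). These intervals include no change and also, for all 3, a rise as large as that fitted for MER61B. MER61E and MER61F rested on 2 and 1 counts in primed library 2, fewer than the 3 counts that a reading of 0 would allow.

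The groups did not overlap for 4 of 7 entries in TMM-scaled CPM, against 36% of named repeats with naive libraries higher. The median log2 change of the 7 entries was 0.60, beside 0.21 over the named repeats and -0.0046 over all 3219 entries. Scaling by library size alone moved the median of all entries to -0.61. MER61A then stood at 0.47 (edgeR adjusted p = 0.166) and MER61D at 0.34 (0.340), while MER61B (-0.013), MER61-int (-0.080), MER61C (-0.32), MER61E (-0.48) and MER61F (-0.47) were below 0. A change of scaling moves all entries by nearly the same amount, so the distance from the median repeat describes an entry's place among the repeats and says nothing of the calls. With library size alone MER61A lay 0.89 above the median of named repeats, MER61D 0.76 and MER61-int 0.34 above it, and MER61E and MER61F at -0.057 and -0.050 from it. With TMM these distances were 0.86, 0.74, 0.39, -0.10 and -0.11. With alpha satellite and ribosomal RNA left out of the fit and of the totals, MER61A, MER61D and MER61-int were called (1.02, 0.90 and 0.55; edgeR adjusted p = 0.00980, 0.0127 and 0.0350) and MER61B was not (0.56, 0.0535). In that fit 8.67% of named repeats were called higher. With simple repeats left out, MER61A (0.84, edgeR adjusted p = 0.0261) and MER61D (0.72, 0.0340) were called higher, as were 2.45% of named repeats.

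Scaled by library total alone, MER61A stood at 98.8, 85.1 and 96.9 CPM in the naive libraries and at 59.9, 50.5 and 80.2 CPM in the primed libraries. Its groups did not overlap on this scale either, on which naive libraries were all higher for 1.66% of named repeats (21 of 1265) and all lower for 35.8%. MER61A was the sole MER61 entry of the first kind. MER61C, at 31.4, 32.2 and 37.7 CPM in the naive libraries and 38.1, 42.1 and 45.9 CPM in the primed libraries, and MER61E, at 11.7, 9.27 and 14.01 against 14.9, 16.8 and 17.5 CPM, were of the second kind. In that fit MER61C (edgeR adjusted p = 0.405) and MER61E (0.308) did not pass either. The summed MER61 level by library total was 594 ± 30.7 CPM in naive against 585 ± 56.7 CPM in primed libraries (SD, n = 3), and the groups overlapped. Relative to the counts outside alpha satellite and ribosomal RNA it was 904, 1087 and 919 CPM in the naive libraries and 642, 618 and 698 CPM in the primed libraries, without overlap. The share of named repeats without overlap on this last scale was not counted. In TMM-scaled CPM that share was 36%, with naive libraries higher.

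**Figure D2:**
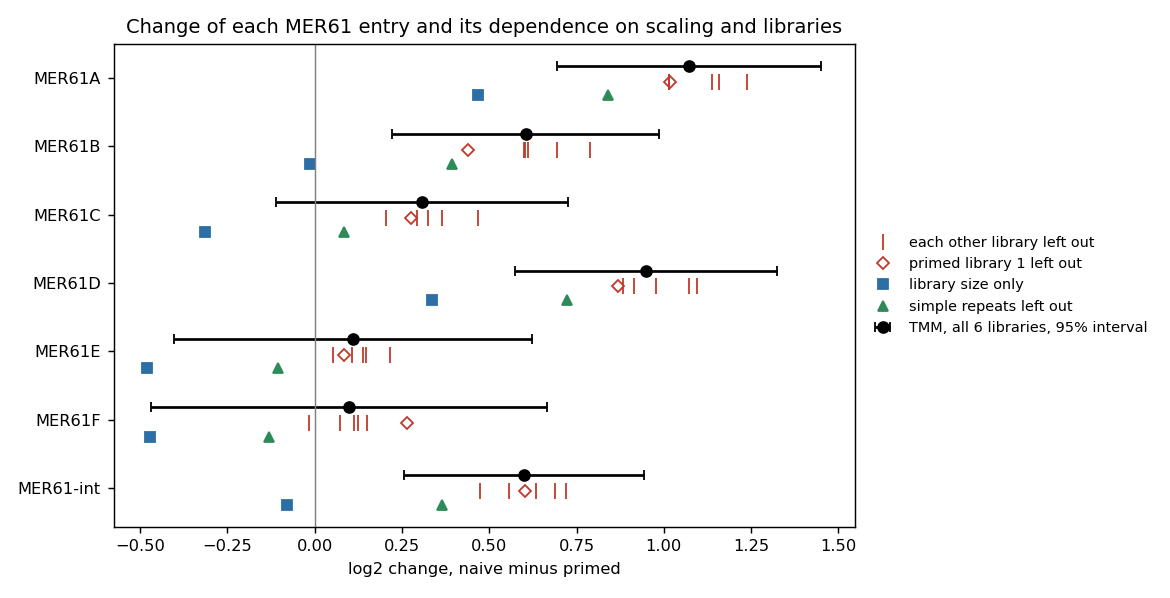
The log2 change (naive minus primed, horizontal axis) of each MER61 entry with its 95% interval (black) beside the values without 1 library (red) and under other scalings (blue square, library size only; green triangle, simple repeats left out). MER61A and MER61D stay above 0 in every setting drawn, while library size alone puts the other 5 entries below 0.

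A share of the summed MER61 counts needs no scaling between libraries and shows whether the entries changed alike. MER61A made up 15.9%, 15.2% and 16.1% of MER61 counts in the naive libraries and 11.4%, 8.57% and 12.5% in the primed libraries. MER61D made up 11.6%, 11.8% and 13.2% in naive and 9.45%, 8.57% and 10.4% in the primed libraries. Both subfamilies thus took a larger part of the family in every naive library.

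MER61C took the opposite course, with 5.06%, 5.75% and 6.28% in naive and 7.23%, 7.14% and 7.17% in the primed libraries. MER61E did too, with 1.88%, 1.66% and 2.33% in naive and 2.82%, 2.86% and 2.74% in the primed libraries. The groups did not overlap for these 4 of the 7 entries (57.1%, all entries that this comparison has), and overlapped for MER61B, MER61F and MER61-int. Shares within other families were not counted, so this number stands without a background. The differences in mean share were 4.92 percentage points for MER61A, 2.72 for MER61D, -1.49 for MER61C and -0.85 for MER61E. Each gave 0.1 in the exact two-sided permutation test, the smallest p that 3 against 3 can give, and 0.175 after Benjamini-Hochberg adjustment over the 7 entries, so none can pass at this number of libraries. Shares of 1 total are not independent, and a larger part for MER61A lowers the rest.

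Counting error in the shallow primed library 2 was large: its 95% Wilson interval for MER61A was 3.99% to 17.5%, which includes the naive shares. In the deeper libraries the intervals of opposite groups were apart for MER61A alone, at 14.5% to 15.9% in naive library 2 and 11.7% to 13.5% in primed library 3, the nearest pair. They overlapped in the nearest pair for the other 3 entries. These were naive library 1 (10.8% to 12.4%) and primed library 3 (9.64% to 11.3%) for MER61D. For MER61C they were naive library 3 (5.82% to 6.77%) and primed library 3 (6.50% to 7.90%), and for MER61E the same libraries (2.05% to 2.65% and 2.33% to 3.22%). Without primed library 2 the differences were 3.79 points for MER61A, 2.26 for MER61D, -1.51 for MER61C and -0.82 for MER61E. Among terminal repeats alone, with MER61-int left out of the total, MER61A held 35.6% ± 1.52 in naive and 27.02% ± 3.44 in primed libraries, and MER61C 12.9% ± 1.03 and 18.1% ± 1.21 (SD, n = 3). The ratio of terminal repeat counts to internal counts was 0.761, 0.725 and 0.906 in naive and 0.661, 0.591 and 0.743 in the primed libraries, which overlap. Reads of near-identical subfamilies can be assigned to one or another, and the rule by which they were assigned was not stated with the data used here.

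**Figure D3:**
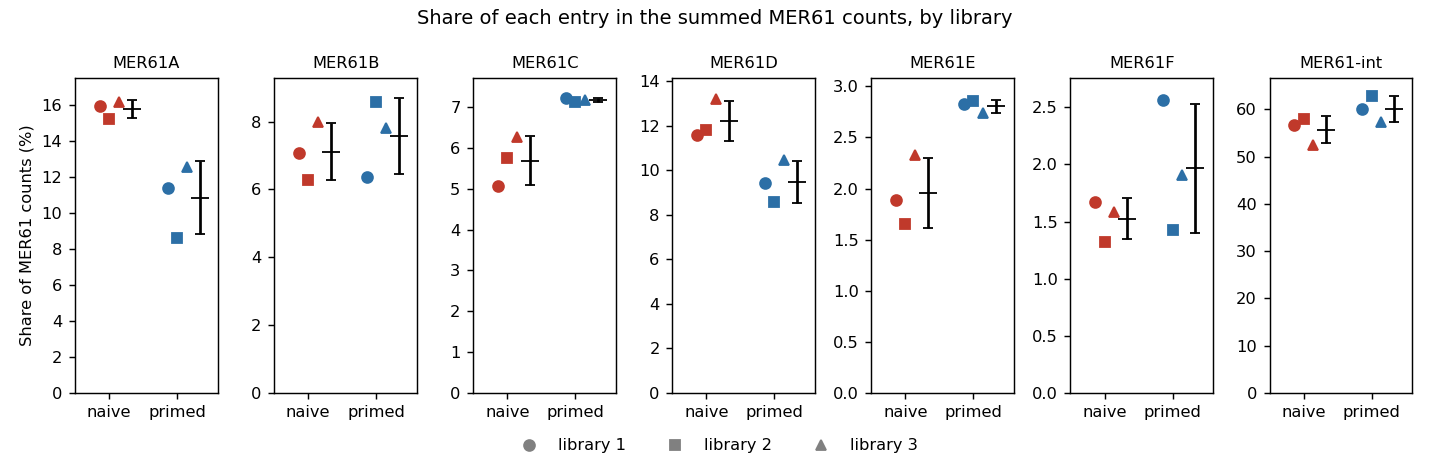
Share of each entry in the summed MER61 counts (percent, vertical axes from 0, 1 scale per entry) in 3 naive (red) and 3 primed (blue) libraries, with black bars for the mean ± SD. MER61A and MER61D have larger shares in all 3 naive libraries, MER61C and MER61E smaller ones.

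Related repeats were read from the same fit, in which 10.4% of named repeats were called higher. Of 13 entries of the MER4 group, retroviral relatives of MER61 of the same class, 2 rose and 0 fell (median log2 0.33; 7 higher and 0 lower at an unadjusted p under 0.05). These were MER4A1_v, a terminal repeat (0.84 ± 0.24, SE; edgeR adjusted p = 0.0454), and the internal part MER4-int (0.64 ± 0.15; 0.0236). Of 7 MER41 entries, a group known for terminal repeats that respond to interferon, 1 rose and 0 fell (median 0.28; 2 and 0 unadjusted). It was the internal part MER41-int, at 0.64 ± 0.15 (SE; edgeR adjusted p = 0.0266).

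LTR10 and its internal parts, named HERVIP10, are another retroviral group known for p53 sites. Of its 12 entries 2 rose and 0 fell (median 0.21; 2 and 0 unadjusted), both of them internal parts, HERVIP10F-int (0.61 ± 0.15, SE; edgeR adjusted p = 0.0300) and HERVIP10FH-int (0.60 ± 0.15; 0.0302). The 9 LTR10 terminal repeats ran from -0.19 to 0.40 and 0 of them passed. MLT1H, an older group of the MaLR type, had 0 of 4 called by edgeR and by DESeq2 (median 0.39; 4 higher at an unadjusted p under 0.05 by edgeR and 3 by DESeq2). DESeq2 called 2, 1 and 1 higher and 0 lower in the other 3 groups, where it called 7.67% of named repeats higher. The shares called in these groups, 15.4% of MER4, 14.3% of MER41 and 16.7% of LTR10 and HERVIP10 by edgeR, lie near that of all named repeats. All 5 calls named here were lost without primed library 1, with edgeR adjusted p between 0.165 and 0.301, and with library size alone, between 0.408 and 0.967. With library size alone 1 entry of each of the MER4, MER41 and LTR10 groups was called lower instead. These were MER4E (log2 -0.93, edgeR adjusted p = 0.00312), MER41G (-0.91, 0.0477) and LTR10D (-0.75, 0.0330), named after their values were seen. In that fit 1051 of all 3219 entries, simple repeats included, were called lower, so such calls were common. The medians of these groups were then -0.31, -0.37 and -0.40. The 5 higher calls were lost too with simple repeats left out, between 0.0979 and 0.165. The MER4A1_v call also failed on removing primed library 2 (0.0626) and on removing naive library 1 (0.0604) or naive library 3 (0.0518). MER4-int was also lost without naive library 2 (0.0670) or primed library 3 (0.0529), and MER41-int without naive library 2 (0.0929). HERVIP10F-int was also lost without naive library 2 (0.0562), and HERVIP10FH-int without naive library 2 (0.0887) or naive library 3 (0.0572).

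Set side by side, MER61-int (log2 0.60) lay among the 7 internal parts of these 4 groups, which ran from 0.21 to 1.09 with a median of 0.61 and of which 4 were called. The 29 terminal repeats of the same groups ran from -0.33 to 0.84 with a median of 0.27, and 1 was called. The 6 MER61 terminal repeats had a median of 0.46 and 3 were called, and MER61A (1.07) and MER61D (0.95) lay above all 29. Per 100 counts of the MER4 and MER41 groups together, a ratio that needs no scaling, there were 15.7, 18.05 and 15.4 MER61 counts in naive and 13.3, 11.5 and 13.8 in the primed libraries. The groups did not overlap in this ratio. The share of other repeats or families without overlap in such a ratio was not counted, so this stands without a background. No test of MER61 against these groups was made, because its entries were picked with earlier results known.

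**Figure D4:**
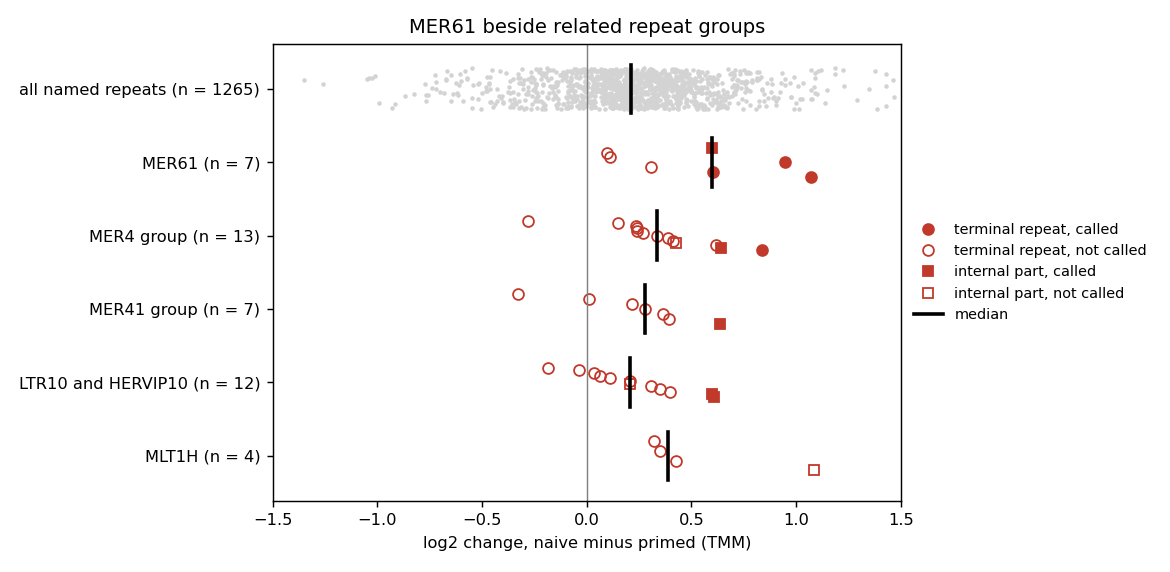
The log2 change (naive minus primed, TMM, horizontal axis) of the 7 MER61 entries and of 4 related groups, with circles for terminal repeats, squares for internal parts, filled where edgeR's adjusted p is under 0.05, and black lines for medians. Grey points are 1243 named repeats, and 22 lie outside the axis. MER61A and MER61D lie to the right of every terminal repeat of the related groups.

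The repeats whose level followed the summed MER61 level most closely over the 6 libraries were L1M7 (Pearson r = 0.983), LTR7 (0.982), LTR8 (0.979), MamRep605 (0.977) and L1MC (0.97), of 289 named repeats with 50 or more counts in the shallowest library. LTR7 is the terminal repeat of HERVH, a retrovirus group transcribed in human pluripotent cells, and the others are an old L1 family (L1M7, L1MC), a retroviral terminal repeat (LTR8) and an ancient repeat (MamRep605). The median r over the 289 was 0.758, and all of them share the 6 libraries and their scaling. These values are a description of log2 CPM with a prior count of 2.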

How the data were processed

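The deposited table holds raw counts (whole numbers) for each repeat name in each library, with no normalisation by the authors that the values show. The submitters' processing notes name Trimmomatic 0.39, STAR 2.7.8a, featureCounts and Subread 2.14.2. The labels' protocols give chromatin fractionation, column extraction of RNA and a directional library kit. What these sources leave unnamed are the genome build, the repeat annotation, whether counting used strand, and how reads with several matches were treated. No sequence or position of a repeat was used.

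The treatment label gave the groups, and titles matched the columns to samples. Counts were fitted with edgeR 4.0.16 (R 4.3.3; filterByExpr, TMM, quasi-likelihood F-test, all 6 libraries, Benjamini-Hochberg over 3219 entries), and the procedure was tested on simulated counts. The SE is the log2 change divided by the square root of F. Wilson and Poisson intervals describe counting error alone, because reads that carry no molecular identifier are not independent molecules. Alternatives were RLE, upper-quartile and no factors, DESeq2 1.42.0, 2 other filters, entries left out, thinning, a replicate block, glmTreat and each library left out.

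The members and lists were chosen with earlier results of these data known. All 7 members are named. Of 4 related lists, called entries are named, up to 3 per direction. The 5 repeats most like summed MER61 follow a fixed rule. Entries named LTR101 to LTR109, other families that the wording of the LTR10 rule also matched, were left out after the names were seen. Figures used matplotlib 3.10.9 in Python 3.11.15.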

Additional observations from a re-analysis of the deposited data

How the results depend on the processing

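MER61 entries called higher, 4 with all libraries and TMM, numbered 0 with library size only, 2 without simple repeats (MER61A and MER61D), 0 after thinning to the shallowest library (where only MER61-int passed the filter), 0 beyond a log2 of 1 (glmTreat), and between 0 (without primed library 1) and 4 with 1 library left out. The count was 3 or 4 in the other 7 alternatives, and 0 entries were called lower in any of the 17. MER61A and MER61D were each called in 13 of 16 alternatives, the exceptions being library size only, glmTreat and primed library 1 left out. MER61-int was called in 10 of 17 and MER61B in 6 of 16. The MER61B call was lost also with upper-quartile factors (edgeR adjusted p = 0.0726) and without a filter (0.0795).

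Signs turned in these cases. With library size only MER61B was at -0.013, MER61C at -0.32, MER61E at -0.48, MER61F at -0.47 and MER61-int at -0.080. With simple repeats left out MER61E was at -0.11 and MER61F at -0.13. With 1 library left out MER61F ran from -0.015 to 0.26. The difference in share of MER61 counts (-4.39 points for MER61-int, -0.44 for MER61F) was 2.54 and 0.15 after thinning. That of MER61B (-0.47) ran from -1.08 to 0.022 (without primed library 2) with 1 library left out. The cause was not tested.

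Over all entries, 159 of 3219 were called higher and 250 lower. The number tested was the same with other or no factors, the replicate block and glmTreat. It was 2087 with DESeq2, 10175 without a filter, 1265 without simple repeats and 707 after thinning. With 1 library left out it ran from 3432 to 3724, so counts from these fits have unlike totals. Called higher were 141 with RLE factors and 157 of 3345 with a filter of 1 CPM in 3 libraries. Without alpha satellite and ribosomal RNA they were 142 of 3361. The higher count was 104 with upper-quartile factors, 28 with library size only, 95 with DESeq2, 264 without a filter, 31 without simple repeats, 264 with the replicate block, 2 after thinning, 4 by glmTreat, and 8 (without primed library 1) to 238 with 1 library left out, where naive library 2 left out gave 56. The lower count was 1051 with library size only, 114 with DESeq2, 596 without a filter, 17 without simple repeats, 0 after thinning, 1 by glmTreat, and 7 (without primed library 1) to 413 (without naive library 1) with 1 library left out, where naive library 2 left out gave 122. Of the called entries 38.9% were higher, against 2.59% with library size only and 23.3% with upper-quartile factors.

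The replicate numbers were not taken to pair the libraries: deviations of same-numbered libraries correlated at 0.15, 0.087 and 0.066, each the best match of its library, a hint from the data and not from the design. With the replicate block the same 4 MER61 entries were called. Depth limits primed library 2, where 3 counts equal 25.3 CPM by library total, above the level of MER61E and MER61F.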
